A study of Mus musculus with 6 samples.

Results

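Genes of the lysosome were read in pre-B cells transformed by BCR-ABL1, a constitutively active tyrosine kinase that drives Ph+ acute lymphoblastic leukemia. The members were 38 genes taken from a list of symbols that covers acid hydrolases, lysosomal membrane proteins, subunits of the proton pump and the MiT/TFE transcription factors, with the cathepsins left out. Each gene stood for itself through the brightest array probe annotated to that symbol alone, and all 38 of 38 were measured, out of 19938 genes in all. The comparison asks whether a change of lysosomal transcripts reaches past the proteins that process antigen.

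The study had 6 Affymetrix arrays, 1 per sample. Every sample came from Balb/c mice, 4 weeks old per the labels, and from cells labelled as Blnk knockout, so the controls carry the knockout too. In 3 samples the cells were transduced with the GFP vector pMIG alone, and in the other 3 with Blnk (Slp65), an adaptor that carries signals from the pre-B cell receptor. RNA was taken from GFP-positive sorted cells 5 days after transduction, so both groups hold transduced cells only. Whether the replicates are separate cultures or animals is not stated in the labels, so each p-value measures only the spread between these samples, possibly technical. In such bulk RNA, fewer cells of a type and less RNA per cell cannot be told apart.

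Lysosomes are acidic compartments in which hydrolases break down glycans, lipids, glycogen and proteins delivered by endocytosis and autophagy. Their acidity is made by the V-ATPase, a rotary pump whose V1 sector splits ATP in the cytosol and whose V0 sector passes protons through the membrane. TFEB, TFE3 and MITF are related basic helix-loop-helix factors, held in the cytosol by mTORC1 on the lysosome, and TFEB turns on many lysosomal genes through a promoter element built around CACGTG. In B cells the same compartment, with its cathepsins and the thiol reductase Ifi30, prepares antigen for loading on class II molecules.

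The promoter letters of the members are shown first, because that element is the sequence feature through which such genes are known to be controlled together. RefSeq windows (GRCm38.p6) of 250 bases before to 50 bases after an annotated start were found for 34 of the 38 members, 42 windows in all. The core CACGTG lay in 11 of these 42 windows (26.2%), against 7.15% of all 32851 windows. The longer TCACGTGA, which contains the core, lay in 5 member windows (11.9%) against 0.974% of all, and the full CLEAR element, which adds a G before and a C after it, in 1 member window (2.38%), that of Cln3, against 0.326%. The element was picked because such genes are known to be controlled through it, so its excess here is no independent result. The median G and C content of the 250 bases before the start was 56.2% in member windows and 52.4% in all. Its part in these shares was not tested. Each of these motifs reads the same on both strands. All TCACGTGA matches of the members follow with 30 bases each, the motif in capitals, 5′ to 3′ on the gene's strand.
Atp6v0d1, chr8:105566050-105566079, minus strand, 4 bases before the start: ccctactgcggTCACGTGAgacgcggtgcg
Atp6v1a, chr16:44139373-44139402, minus strand, 132 bases before the start: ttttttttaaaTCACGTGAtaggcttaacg
Gla, chrX:134601215-134601244, minus strand, 228 bases before the start: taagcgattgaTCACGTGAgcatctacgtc
Gla, chrX:134601182-134601211, minus strand, 195 bases before the start: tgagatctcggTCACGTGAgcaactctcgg
Cln3, chr7:126583340-126583369, minus strand, 122 bases before the start: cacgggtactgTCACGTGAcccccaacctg
Mcoln1, chr8:3500462-3500491, plus strand, 46 bases before the start: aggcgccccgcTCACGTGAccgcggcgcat

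The genes that carry these letters encode the pump subunits Atp6v0d1 and Atp6v1a, the alpha-galactosidase Gla, which had 2 matches, the membrane protein Cln3 and the calcium channel Mcoln1. The other 6 members with CACGTG alone were Arsa, Gaa, Glb1, Lamp1, Naglu and Sgsh. Lamp1 had 4 such cores, all within 61 bases of its start. A match is a description of these letters and not a binding site.

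Only 3 members passed the test for a rise, and for these the 250 bases before the first annotated start are given. Capitals mark any CANNTG, the general form that helix-loop-helix factors read, which 72.3% of all windows hold.
Psap, chr10:60277378-60277627, plus strand: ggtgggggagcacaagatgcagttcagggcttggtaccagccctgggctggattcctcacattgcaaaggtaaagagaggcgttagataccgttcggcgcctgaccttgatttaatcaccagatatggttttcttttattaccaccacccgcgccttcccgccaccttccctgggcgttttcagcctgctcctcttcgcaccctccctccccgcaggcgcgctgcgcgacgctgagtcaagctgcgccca
Atp6v0a1, chr11:101010148-101010397, plus strand: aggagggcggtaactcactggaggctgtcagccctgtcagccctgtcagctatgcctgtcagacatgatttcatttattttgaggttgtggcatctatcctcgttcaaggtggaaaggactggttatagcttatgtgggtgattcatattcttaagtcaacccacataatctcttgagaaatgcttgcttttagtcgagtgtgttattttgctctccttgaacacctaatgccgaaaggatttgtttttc
Atp6ap1, chrX:74296847-74297096, plus strand: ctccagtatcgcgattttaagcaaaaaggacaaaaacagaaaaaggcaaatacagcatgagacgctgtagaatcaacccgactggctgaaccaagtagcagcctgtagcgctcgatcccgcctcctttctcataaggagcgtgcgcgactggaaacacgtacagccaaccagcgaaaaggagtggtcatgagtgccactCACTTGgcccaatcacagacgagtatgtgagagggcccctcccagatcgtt

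No CACGTG was found in the windows of Psap, Atp6v0a1 or Atp6ap1, and in these stretches the 1 CANNTG was that of Atp6ap1. Psap has a second annotated start, whose window also lacks CACGTG. Over all genes that rose and have a window, 37 of 391 carried CACGTG (9.46%), against 9.50% of the 15614 tested genes with a window. For TCACGTGA these shares were 1.28% and 1.52%.

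Differences of the lysosomal genes between Blnk and pMIG samples were small and mostly above 0. The median log2 fold change of the 38 members was 0.12 (Blnk minus pMIG), against 0.00 over all genes, and 29 of 38 (76.3%) were above 0, against 49.6% of all genes. After repeated quantile normalization these shares were 24 of 38 and 40.3%, with medians of 0.07 and -0.03. By limma, with Benjamini-Hochberg adjustment over all 19938 genes and a threshold of 0.05, 3 members rose and 0 fell. Of all genes, 3.61% passed, 2.51% upward and 1.10% downward. Before adjustment, 11 members were higher and 2 lower at p under 0.05, against 1777 and 1261 of all 19938 genes. The 3 that rose were Atp6v0a1, Psap and Atp6ap1, and their rises were between 1.28-fold and 1.47-fold.

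For 36 of 38 members (94.7%) the 95% interval of the difference lay within 1.5-fold in either direction, and for all 38 it lay within 2-fold. Over all genes these shares were 93.7% and 99.0%, so the members were near the background in this respect. The 2 whose interval reached past 1.5-fold were Atp6v0a1 and Psap. In 16 members every Blnk sample was above every pMIG sample, and in 5 every Blnk sample was below. Over all genes 11.8% had groups separate in the first way and 8.15% in the second. With dim genes left out, which kept 36 members and the same 16 and 5, these backgrounds were 17.9% and 11.6%. Of those 36, 29 had log2 fold changes above 0, against 52.2% of the genes kept.

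**Figure D1:**
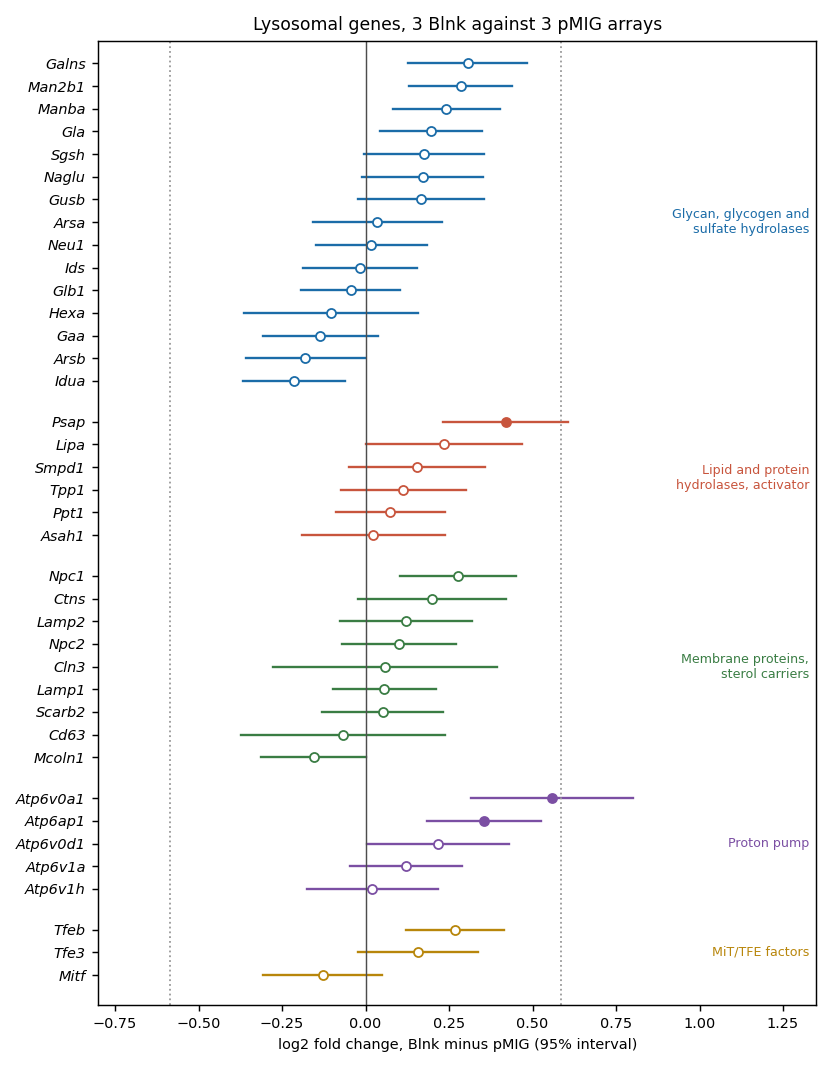
Log2 fold change of each of the 38 members, Blnk minus pMIG, with its 95% interval from limma, by role and ordered by size within a role. Filled points passed the adjusted threshold of 0.05, open points did not, and dotted lines mark 1.5-fold; the filled points are Psap, Atp6v0a1 and Atp6ap1.

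The arrays within a group were not alike for these genes. The member median of log2 intensity was 8.62, 8.69 and 8.61 in pMIG samples 1 to 3 and 8.83, 8.73 and 8.84 in Blnk samples 1 to 3. Sample Blnk 3 was the highest of the 6 arrays for 17 members, and pMIG 1 was the lowest for 17, ties not counted. Blnk 2 stood closest to the pMIG samples and was the highest for 4 members. The coefficient of variation among replicates had a median of 4.37% with pMIG and 6.57% with Blnk over the members.

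**Figure D2:**
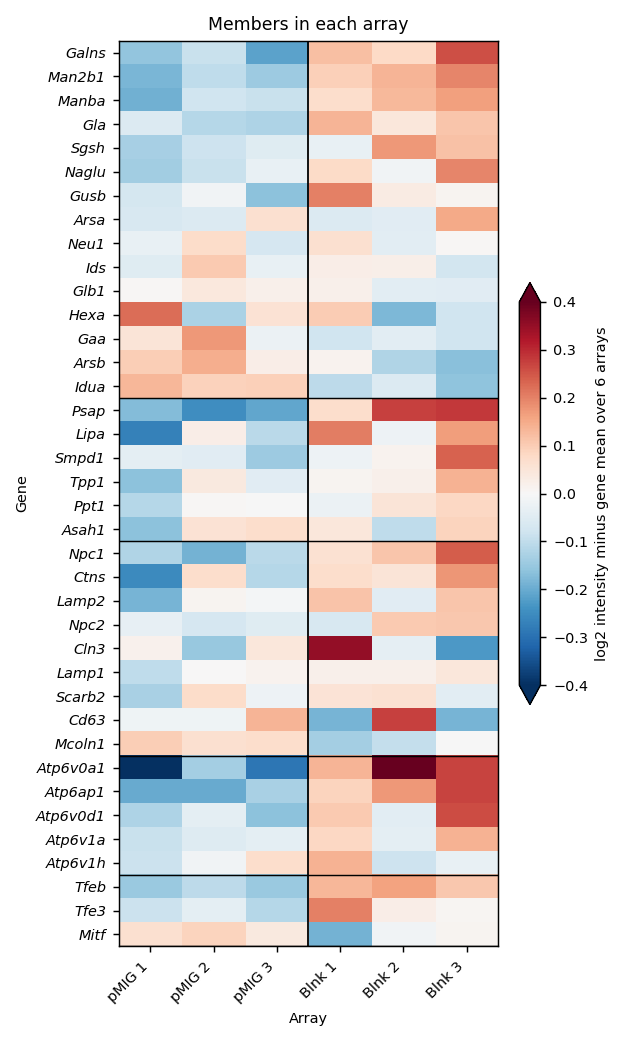
Each member's log2 intensity in each array minus its mean over the 6 arrays; rows are genes by role, columns are arrays, and the color scale ends at 0.4, which 2 of 228 values exceed, both of Atp6v0a1. The Blnk columns are redder in most rows, most of all Blnk 3, while Idua, Arsb, Gaa and Mcoln1 run the other way.

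Atp6v0a1 encodes an isoform of the V0 a subunit, which forms the proton path. Its intensity was 357, 433 and 389 in pMIG samples 1 to 3 and 522, 641 and 574 in Blnk samples 1 to 3. All Blnk values were above all pMIG values, with pMIG 1 lowest and Blnk 2 highest. The means were 393 ± 38.2 and 579 ± 59.7 (SD, n = 3), a 1.47-fold rise (log2 0.56, SE 0.10, limma adjusted p = 0.0296). This was the largest difference in either direction among the 38 members.

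Psap is the precursor of the saposins, small proteins that present sphingolipids to their hydrolases. It was bright on every array, at 4954, 4704 and 4843 with pMIG and 5873, 6755 and 6802 with Blnk. The groups were separate, and Blnk 1 stood below the other Blnk samples. The means were 4834 ± 125 and 6477 ± 523 (SD, n = 3), a 1.34-fold rise (log2 0.42, SE 0.08, limma adjusted p = 0.0325).

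Atp6ap1 encodes Ac45, an accessory protein of the pump that helps its assembly. Its intensity was 1470, 1472 and 1547 with pMIG and 1798, 1909 and 2038 with Blnk, with separate groups. The means were 1496 ± 43.9 and 1915 ± 120 (SD, n = 3), a 1.28-fold rise (log2 0.35, SE 0.07, limma adjusted p = 0.0436).

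These 3 calls lay close to the threshold. Leaving out 1 array, Atp6v0a1 passed without pMIG 2 (limma adjusted p = 0.0483) and not without pMIG 1 (0.107), pMIG 3 (0.143), Blnk 1 (0.0565), Blnk 2 (0.121) or Blnk 3 (0.125). Psap passed without Blnk 1 (0.0251) and not without pMIG 1 (0.0884), pMIG 2 (0.123), pMIG 3 (0.139), Blnk 2 (0.133) or Blnk 3 (0.130). Atp6ap1 lost the call whichever array was dropped (0.0621 for Blnk 1, up to 0.148 for pMIG 2). Their log2 differences stayed between 0.48 and 0.63, 0.38 and 0.49, and 0.31 and 0.40, in that order. Atp6ap1 also missed the threshold after repeated quantile normalization (log2 0.30, adjusted p = 0.0963) and with arrays centred on their medians (log2 0.37, adjusted p = 0.0574).

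**Figure D3:**
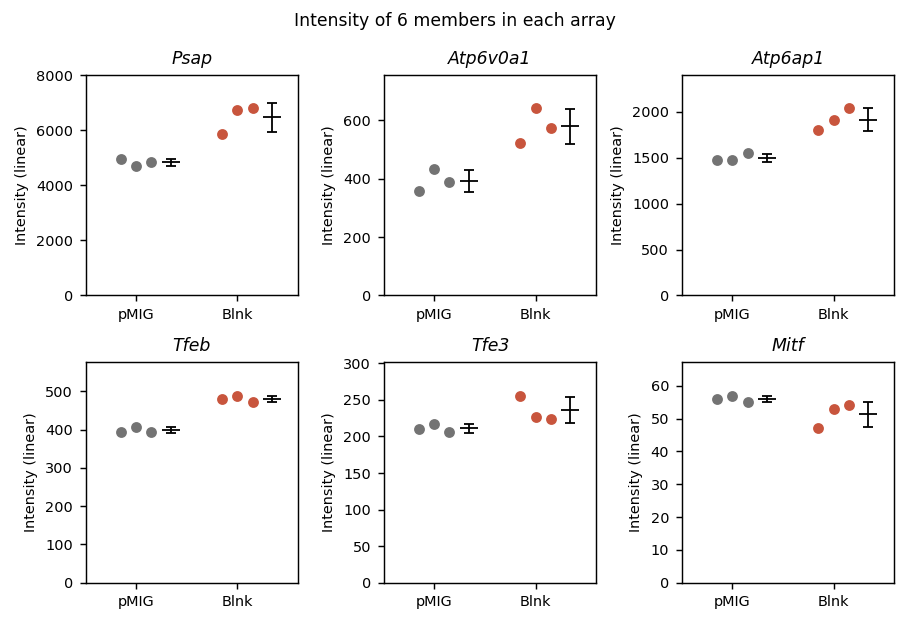
Linear intensity of Psap, Atp6v0a1, Atp6ap1, Tfeb, Tfe3 and Mitf in each of the 6 arrays, from 0, with points for arrays 1 to 3 of a group from left to right and the mean ± SD beside them. The groups are separate in all 6 genes, upward except in Mitf, and Tfeb has the tightest groups of the upward ones relative to its level.

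The remaining pump members did not pass. Atp6v0d1, which couples the sectors, stood at 766, 813 and 745 with pMIG and 898, 811 and 999 with Blnk, where Blnk 2 fell among the pMIG values (log2 0.22, adjusted p = 0.319). Atp6v1a, the catalytic V1 subunit, went from 978 ± 17.6 to 1065 ± 65.8 (SD, n = 3; log2 0.12). Atp6v1h, a regulatory V1 subunit, stood at 654 ± 35.6 and 664 ± 54.5 (SD, n = 3; log2 0.02). Both of these had adjusted p above 0.5 by limma.

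A wider view of the pump comes from 19 further subunits that were measured out of 20 listed. Of these, 2 rose and 0 fell, against 2.51% and 1.10% of all genes. The median of the 19 was 0.11. Atp6v0e, a small V0 subunit, rose from 1355 ± 39.4 to 1863 ± 53.4 (SD, n = 3; log2 0.46, limma adjusted p = 0.00935), and Atp6v0b, a proteolipid of the V0 ring, from 1697 ± 75.8 to 2206 ± 120 (SD, n = 3; log2 0.38, adjusted p = 0.0350). Atp6v0e passed with every array left out but pMIG 3 (0.0570). Atp6v0b lost the call whichever array was dropped (0.0582 to 0.132), and after repeated quantile normalization (0.0754).

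Sorted by sector, a split made after the values were seen, 3 of 9 V0 genes, 1 of 2 accessory genes and 0 of 13 V1 genes rose. Of all genes 2.51% rose, so 0 of 13 is near the background. The V1 genes were not lower as a set: 11 of 13 had log2 fold changes above 0, with a median of 0.12, and the median of the V0 genes was 0.11. Atp6v1f, a stalk subunit, came nearest among V1 genes (log2 0.29, adjusted p = 0.0828). Whether the sectors differ was not tested. Over all 24 subunits, 10 had Blnk samples all above pMIG samples and 0 the reverse, against 11.8% and 8.15% of all genes. With dim genes left out these all-gene shares were 17.9% and 11.6%.

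Hydrolases of glycans, glycogen and sulfate esters went both ways. None of the 15 passed by limma, and unadjusted p was under 0.05 for 4 that were higher and 2 that were lower. Of all 19938 genes, 1777 were higher and 1261 lower at that level. The median was 0.03, and -0.02 after repeated quantile normalization. Galns, a sulfatase of keratan sulfate, stood at 614, 644 and 590 with pMIG and 744, 723 and 819 with Blnk (log2 0.31, adjusted p = 0.0879). Man2b1, the lysosomal alpha-mannosidase, was at 846, 894 and 868 against 1026, 1055 and 1098 (log2 0.29, adjusted p = 0.0667). Both had separate groups and were the nearest to the threshold among the 15.

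Manba, the beta-mannosidase, went from 269 ± 11.6 to 318 ± 10.6 (SD, n = 3; log2 0.24, adjusted p = 0.132). Gla, which removes terminal galactose from glycolipids, went from 298 ± 7.57 to 342 ± 11.4 (SD, n = 3; log2 0.20, adjusted p = 0.200). Gusb, the beta-glucuronidase, Naglu and Sgsh, enzymes of heparan sulfate breakdown, were also separate upward, with log2 differences of 0.17, 0.17 and 0.18. Their 95% intervals reached from just below 0 to 0.35, 0.35 and 0.35. None of these 3 passed.

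On the lower side stood Idua, which removes iduronic acid from heparan and dermatan sulfate. Its intensity was 276, 268 and 269 with pMIG and 234, 242 and 225 with Blnk, with separate groups (log2 -0.21, SE 0.07, limma adjusted p = 0.157). Arsb, a sulfatase of dermatan sulfate, was at 488, 505 and 465 against 461, 420 and 406 (log2 -0.18, adjusted p = 0.319), and its other probe, with an intensity of 317 to 389 under pMIG and 276 to 319 under Blnk, gave -0.23. Gaa, which degrades glycogen, stood at 272, 296 and 258 against 248, 255 and 248 (log2 -0.14, adjusted p = 0.463). The heparan sulfate enzymes Idua, Ids, Naglu and Sgsh lay on both sides of 0 within a narrow range, from -0.21 for Idua to 0.18 for Sgsh.

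The other 5 hydrolases of this group had overlapping samples. Arsa, the sulfatide sulfatase (log2 0.03), the sialidase Neu1 (0.02), the iduronate sulfatase Ids (-0.02) and the beta-galactosidase Glb1 (-0.04) had adjusted p of 0.817 or more. Glb1 had the narrowest 95% interval of these 4, from -0.19 to 0.10. Hexa, a subunit of beta-hexosaminidase, was dim at 28.0 to 37.0 over the 6 arrays, below the array medians of 67.0 to 70.0, so little can be said of its change (log2 -0.10, adjusted p = 0.747).

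Hydrolases of lipids and proteins, with the saposin precursor Psap, made up 6 members. Only Psap passed, and all 6 had log2 differences above 0 (median 0.13). After repeated quantile normalization Asah1 stood at -0.02. Lipa, the acid lipase that frees cholesterol from its esters, was at 259, 318 and 290 with pMIG and 360, 308 and 351 with Blnk (log2 0.23, adjusted p = 0.323). Its groups overlapped through pMIG 2 and Blnk 2. Smpd1, the acid sphingomyelinase, went from 382 ± 15.6 to 426 ± 41.9 (SD, n = 3; log2 0.15), and the ceramidase Asah1 from 488 ± 43.7 to 496 ± 33.5 (SD, n = 3; log2 0.02). Tpp1, a tripeptidyl peptidase, stood at 0.11, and Ppt1, which strips palmitate from proteins, at 0.07. The difference in Psap was larger than that of any of the 5 others, and that contrast between genes was not tested.

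Membrane proteins and sterol carriers held 9 members, of which 0 passed by limma and 1, Npc1, was higher at an unadjusted p under 0.05. So were 1777 of all 19938 genes. Npc1, the cholesterol exporter of the lysosomal membrane, stood at 345, 329 and 348 with pMIG and 391, 405 and 443 with Blnk, with separate groups (log2 0.28, adjusted p = 0.108). Npc2, the soluble carrier that hands it cholesterol, was at 1477, 1443 and 1460 against 1447, 1624 and 1629 (log2 0.10, adjusted p = 0.605). Blnk 1 lay within the pMIG range of Npc2.

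Lamp1 and Lamp2, the most abundant glycoproteins of the lysosomal membrane by common knowledge, differed little. Lamp1 was at 1869, 2006 and 2026 with pMIG and 2031, 2031 and 2069 with Blnk. Its groups were separate by a narrow gap (log2 0.06, 95% interval -0.10 to 0.21), and after repeated quantile normalization its difference was -0.0010. Lamp2 stood at 815, 936 and 924 against 1004, 900 and 1003, with overlap through Blnk 2 (log2 0.12, 95% interval -0.08 to 0.32). For both, the interval leaves out a rise of 1.5-fold.

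Ctns, the cystine exporter, was at 284 ± 32.2 and 325 ± 15.1 (SD, n = 3; log2 0.20, adjusted p = 0.392). Scarb2, the sorting receptor of beta-glucocerebrosidase, stood at 0.05 and Cln3 at 0.06. Cln3 was the most scattered member with Blnk, at 136, 104 and 91 in samples 1 to 3. Mcoln1, the calcium channel through which the lysosome signals, ran lower, from 711, 694 and 698 to 605, 621 and 663, with separate groups (log2 -0.16, adjusted p = 0.332). Cd63, a tetraspanin of late endosomes, had intensities of 8 to 11 on all arrays, where rounding to whole numbers is coarse, and its difference of -0.07 can hardly be read.

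The MiT/TFE factors did not pass. Tfeb was at 395, 407 and 395 with pMIG and 480, 489 and 472 with Blnk, tight within each group (means 399 ± 6.93 and 480 ± 8.50, SD, n = 3; log2 0.27, SE 0.06, limma adjusted p = 0.0683). Tfe3 was at 210, 217 and 206 against 256, 227 and 224, separate through a narrow gap (log2 0.16, adjusted p = 0.402). Mitf lay below the array medians, at 56, 57 and 55 against 47, 53 and 54 (log2 -0.13, adjusted p = 0.509), and its other probe was at 6 to 8. These are transcript levels; where the proteins sit in the cell, which sets their activity, was not measured.

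Tfeb, Man2b1, Galns and Npc1 stood between 0.0667 and 0.108 in adjusted p and depended on how the test was set. With dim genes left out before the fit, these 4 and Manba also passed, 8 of 36 members, with 0 called lower, against 6.75% called higher and 3.52% lower among the 11963 genes kept. With a trended and robust variance prior these 4 also passed, 7 members in all, where 1021 of 19938 genes rose and 518 fell. The log2 differences are the same in these fits, so only the error and the adjustment changed. With any 1 array left out none of these 5 passed: the lowest adjusted p was 0.106, for Man2b1 without Blnk 1.

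The members with TCACGTGA in a window lay on both sides of 0, and the middle one, Atp6v1a, lay near the members' median of 0.12. The log2 differences of these 5 were 0.22 (Atp6v0d1), 0.20 (Gla), 0.12 (Atp6v1a), 0.06 (Cln3) and -0.16 (Mcoln1). By limma 0 of 5 passed, against 2.51% of all genes upward and 1.10% downward. Atp6v0d1 and Gla were higher at an unadjusted p under 0.05, as were 1777 of all 19938 genes. Gla and Atp6v1a were separate upward and Mcoln1 downward, against 11.8% and 8.15% of all genes. Of the 6 with CACGTG alone, Lamp1, Naglu and Sgsh were separate upward and Gaa separate downward. Whether a motif goes with a difference was not tested.

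The list of cathepsins and related enzymes held larger differences than the members, though not in every gene. Ctsd stood at 0.16 and the dim Ctsl at -0.03. Of the 15 genes on that list, 6 rose and 0 fell, with a median of 0.29. Of the members, 3 of 38 rose, with a median of 0.12, and of all genes 2.51% rose. The list was chosen as a comparison with earlier results of these data known, so its contrast with the members is no independent test. With dim genes left out 10 of 12 passed upward, against 6.75% of the genes kept. With the trended prior 9 of 15 did, against 1021 of 19938 genes. Ifi30, the thiol reductase, rose from 887 ± 18.6 to 4375 ± 648 (SD, n = 3; log2 2.29), Lgmn, the asparagine endopeptidase, by 0.73, and Ctss, which trims the invariant chain, by 0.79, each with every array left out. Ctsh rose by 1.08, from 46.7 ± 9.87 (SD, n = 3), and passed without pMIG 2 (0.00485) but not without pMIG 1 (0.0518), pMIG 3 (0.0698), Blnk 1 (0.0538), Blnk 2 (0.0569) or Blnk 3 (0.0585). Without pMIG 1, pMIG 3 or Blnk 2, 3 of the 15 passed, and 4 without Blnk 1 or Blnk 3. The lists were not tested against each other.

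**Figure D4:**
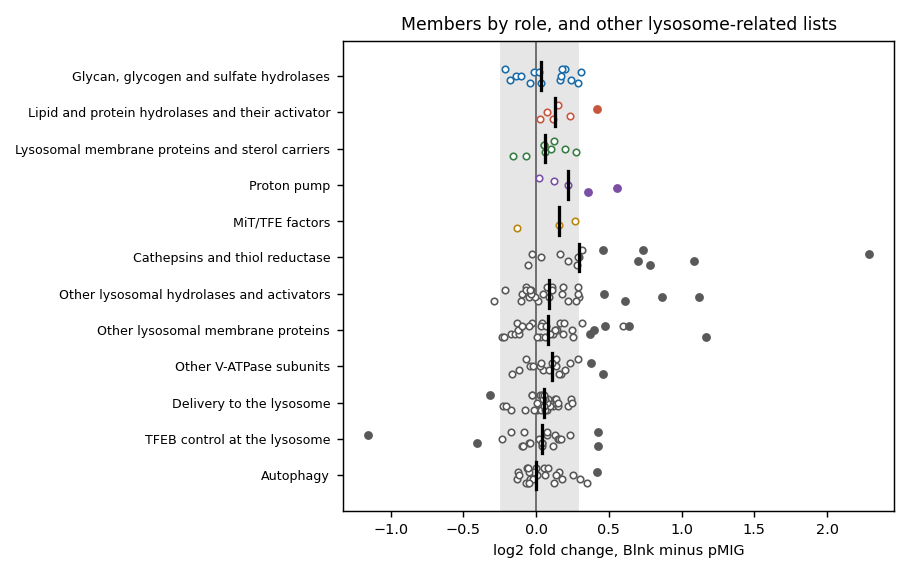
Log2 fold change (Blnk minus pMIG) of each measured gene of the member roles (colored) and of 7 comparison lists (grey). Filled points passed the limma threshold, black bars are list medians, the line is the all-gene median and the shaded band spans the 5th to 95th percentile of all genes (-0.24 to 0.28); the cathepsin list has the median furthest to the right.

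Lysosomal genes outside the 38 were read from the comparison lists. Of all genes 2.51% rose and 1.10% fell. Of 29 further hydrolases and activators measured out of 35 listed, 4 rose and 0 fell (median 0.09). Pld4, an exonuclease of endolysosomal nucleic acids, rose from 1130 ± 28.7 to 2468 ± 289 (SD, n = 3; log2 1.12), and Acp5, the tartrate-resistant acid phosphatase, by 0.87, each with every array left out. Naaa, an amidase of fatty acid ethanolamides, rose by 0.61. It lost the call without pMIG 1 (0.0538), pMIG 3 (0.0698) or Blnk 2 (0.0632). Prcp, a carboxypeptidase, rose by 0.47 and lost the call whichever array was dropped (0.0604 to 0.177). Without pMIG 1, pMIG 3 or Blnk 2, 2 of the 29 passed.

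Of 34 further membrane proteins measured out of 37 listed, 5 rose and 0 fell (median 0.08), against 2.51% and 1.10% of all genes. Slc29a3, a nucleoside transporter of the lysosome, rose from 196 ± 13.7 to 439 ± 20.7 (SD, n = 3; log2 1.16), and Slc15a4, a histidine and peptide transporter, from 682 ± 14.0 to 1064 ± 77.4 (SD, n = 3; log2 0.64), each with every array left out. Lmbrd1, a cobalamin exporter, rose by 0.48 and lost the call without pMIG 3 (0.0666), Blnk 1 (0.0658), Blnk 2 (0.0560) or Blnk 3 (0.0743). Mfsd12 rose by 0.37 and lost the call whichever array was dropped (0.0641 to 0.0932), and with arrays centred on their medians (0.0535). Without pMIG 3 or any 1 Blnk array, 2 of the 34 passed, and 3 without pMIG 1 or pMIG 2.

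Genes that control TFEB at the lysosome split. Of 23 measured, 2 rose and 2 fell, against 2.51% and 1.10% of all genes. The median of the 23 was 0.04 (-0.01 after repeated quantile normalization). Rragd, a Rag GTPase that brings mTORC1 to the lysosome, fell most, from 713, 822 and 756 with pMIG to 366, 316 and 346 with Blnk. Its groups lay far apart (log2 -1.16, SE 0.09, limma adjusted p = 0.000383), and it passed with every array left out. Its close relative Rragc had a log2 difference of 0.16 (adjusted p = 0.360) and was picked knowing that value. Rragb fell by 0.41 on the log2 scale (adjusted p 0.0529 to 0.183 with an array dropped), while Rraga rose by 0.43 (0.0542 to 0.106) and the Ragulator anchor Lamtor1 by 0.43 (0.0579 to 0.0809), and these 3 lost the call whichever array was dropped. With arrays centred on their medians Rragb did not pass (0.0797).

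With the main settings, calls among delivery and autophagy genes were near the background, where 3.61% of all genes passed. Some other settings, given below, called more autophagy genes. Over all genes 49.6% had log2 fold changes above 0, 11.8% were separate upward and 8.15% downward. Of 32 genes of delivery to the lysosome measured out of 33, 24 had log2 fold changes above 0 (75.0%, median 0.06), 9 were separate upward and 5 downward. By limma 0 rose and 1 fell, Dtnbp1, a BLOC-1 subunit (log2 -0.31, limma adjusted p = 0.0382), which lost the call whichever array was dropped (0.0907 to 0.143), and with arrays centred (0.153). Of 25 autophagy genes measured out of 26, 1 rose and 0 fell (median -0.0030, from -0.05 after repeated quantile normalization to 0.05 without pMIG 3). This was Gabarap, an ATG8 protein of the autophagosome (log2 0.42, limma adjusted p = 0.0206). It passed without Blnk 1 (0.0431) and not without pMIG 1 (0.0729), pMIG 2 (0.0871), pMIG 3 (0.0821), Blnk 2 (0.0824) or Blnk 3 (0.0809). In the autophagy list 9 genes were separate upward and 1 downward. With probes averaged 3 passed upward, with dim genes left out 2 and with the trended prior 4. Over all genes 506 of 19938, 807 of 11963 and 1021 of 19938 rose under these settings.

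Across the arrays as a whole, Blnk transcript was at 926 to 1013 with pMIG and 2714 to 3342 with Blnk (log2 1.64, limma adjusted p = 0.000101). The position of the probe in Blnk is unknown here, so the pMIG level checks no genotype. Markers of the B lineage were bright, with Igll1 at 10104 to 10793 with pMIG and 8968 to 9383 with Blnk (log2 -0.19, adjusted p = 0.227), and Cd79a at 4886 to 4993 and 5865 to 6279. Of the 8 measured, Cd79a (0.31) and Blk (0.88) rose and Vpreb1 fell (-0.68), and the summed level was 28913 to 29894 with pMIG and 29513 to 31278 with Blnk. Myeloid cells are rich in lysosomes, and 12 of their 13 measured markers stayed below the array medians in both groups, among them Mpo at 40 to 48. The summed level of the 13 was 490 to 542 with pMIG and 607 to 627 with Blnk; without Fcgr1, the 1 that rose (log2 0.74), it was 351 to 391 and 369 to 391. Of the markers listed for other lineages, Cd2 (0.73) and Pecam1 (0.64) rose, and Cd8a (0.12), Itga2b (0.05), Epor (0.08) and Col1a1 (-0.12) did not pass. Cd2 was at 1373 to 1477 with pMIG, where Cd3e was at 73 to 91 and Cd3d at 19 to 26. The T and NK sum was thus mostly Cd2, which does not by itself mark those cells here. Summed levels with pMIG and with Blnk were 1778 to 1904 and 2546 to 3100 for 9 T and NK markers, 227 to 269 and 237 to 277 for 5 of erythroid cells and megakaryocytes, and 902 to 979 and 1149 to 1261 for 8 of stroma and endothelium. Without Cd2 and Pecam1, the first and last of these sums were 382 to 444 against 420 to 503, and 395 to 512 against 406 to 491. The part of these cell types in the members' differences was not tested.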

How the data were processed

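The deposited intensities are linear whole numbers per probe, made by RMA per the submitters' processing notes (no version given) and apparently returned from log2 and rounded, an inference from the values. The planned test assumed log2 values, so log2 was taken here, with nothing added. Probes were named from the platform annotation; 21789 of 35421 had 1 symbol, 1621 had several and 12011 had none listed. The brightest single-symbol probe stood for each of 19938 genes. All member probes matched a RefSeq gene by Entrez identifier. The model (limma 3.58.1 under R 4.3.3, lmFit then eBayes) had group as its only term, with two-sided tests and Benjamini-Hochberg adjustment over all genes; it was tested on simulated data. The number of arrays limits the precision. Members and lists were chosen with earlier results of these data known. All 38 members are named, and Blnk itself. From comparison lists at most 4 genes past the threshold were named, by smallest adjusted p, and from marker lists the 2 brightest. Rragc, Ctsd, Ctsl, Atp6v1f, Blk, Vpreb1, Cd3e and Cd3d were named outside these rules, after the values were seen. CANNTG and the pump sectors were also added after the data were seen. Alternatives were a replicate block, repeated quantile normalization, median centring, leaving out genes below the 40th percentile, averaging probes, another variance prior and leaving out each array. List entries without a single-symbol probe were not analysed here.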

Additional observations from a re-analysis of the deposited data

How the results depend on the processing

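With 3 arrays a group, small differences sit near the threshold: 3 members passed, all higher. The members called numbered 8 with dim genes left out (Hexa and Cd63 were then not fitted), 7 with the trended robust prior, 2 with quantile normalization and 2 with centring, 3 with probes averaged, and 0 to 1 with an array left out. None was called lower under any of these. Over all genes, calls numbered 1228 (807 higher, 421 lower) with dim genes left out and 1539 (1021 and 518) with the trended prior. They numbered 267 to 437 with an array left out (195 to 304 higher, 72 to 133 lower). The count was 375, 368 and 267 when pMIG 1, 2 or 3 was dropped, and 437, 319 and 315 when Blnk 1, 2 or 3 was dropped. Repeated quantile normalization gave 411 higher and 327 lower, against 500 and 220. Deviations of same-numbered samples correlated at -0.19, 0.06 and -0.12, and no sample correlated best with its own number. The best matches were pMIG 1 with Blnk 3 (0.28), pMIG 2 with Blnk 1 (0.16) and pMIG 3 with Blnk 2 (0.07). With 3 arrays a group, such correlations cannot settle whether the samples were paired. With the number as a block 289 genes (208 higher, 81 lower) and 1 member, Atp6v0a1, passed. The median of the members stayed between 0.07 and 0.14 under all alternatives.

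Signs turned in 9 members, none past the threshold in any of these fits and none above 0.07 in size before. With quantile normalization these were Neu1 (-0.026), Arsa (-0.019), Asah1 (-0.017), Lamp1 (-0.0010) and Atp6v1h (-0.022). With an array left out they ranged from -0.053 to 0.079 for Asah1, -0.0013 to 0.10 for Scarb2, -0.046 to 0.066 for Atp6v1h, -0.045 to 0.031 for Ids, -0.10 to 0.19 for Cln3, -0.013 to 0.057 for Neu1, -0.22 to 0.0091 for Cd63 and -0.032 to 0.076 for Arsa. The cause was not tested.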
